A study of Mus musculus with 18 samples.

Results

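The Hox cluster genes encode homeodomain transcription factors that lie in 4 chromosomal clusters, Hoxa, Hoxb, Hoxc and Hoxd, and are numbered by their position along the cluster from 1 to 13. They were chosen here by symbol alone, as all probe sets that name a single Hox gene, with no filter on low values. The set held 48 probe sets for 33 genes (9 Hoxa, 9 Hoxb, 7 Hoxc and 8 Hoxd) of 18193 genes with a single-gene probe set, and of 39 Hox cluster genes in the RefSeq gene table. The other 6 were not analysed here. Where a gene had several probe sets, the one with the highest mean stands for it.

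RNA came from 9 normal mouse prostates, in which the ventral and dorsolateral lobes were sampled, and from 9 prostate tumours of TRAMP mice, 1 Affymetrix array per sample. TRAMP mice carry a transgene in which a probasin promoter drives the T antigens of a simian virus in prostate epithelium. The normal samples are labelled only as normal prostate, and the labels name no strain, age, treatment or array batch for either group. They also do not say whether each sample is a separate animal, so a p-value here measures the spread between these samples.

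In the embryo Hox genes are switched on in the order of their position, those with low numbers towards the head and those with high numbers towards the tail, and adult tissues keep part of that pattern. The high-numbered genes pattern the urogenital tract: Hoxa10, Hoxa13 and Hoxd13 take part in shaping the prostate and the seminal vesicle, and Hoxb13 is a lasting marker of prostate luminal epithelium. Hox proteins bind DNA with cofactors of the Pbx and Meis families, and Polycomb and trithorax complexes keep the clusters silent or active.

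The starts of Hoxd3, Hoxd8 and Hoxd9, which lie side by side in the Hoxd cluster, are shown because these were the Hox genes with the largest positive differences in tumours. Each sequence runs 5′ to 3′ from 250 bases before the start of the gene to 50 after it, from RefSeq on GRCm38.p6. Capitals mark CCAAT and GGGCGG on either strand, so that ATTGG and CCGCCC are the same motifs read on the other strand.
Hoxd9, chr2:74697513-74697812, plus strand: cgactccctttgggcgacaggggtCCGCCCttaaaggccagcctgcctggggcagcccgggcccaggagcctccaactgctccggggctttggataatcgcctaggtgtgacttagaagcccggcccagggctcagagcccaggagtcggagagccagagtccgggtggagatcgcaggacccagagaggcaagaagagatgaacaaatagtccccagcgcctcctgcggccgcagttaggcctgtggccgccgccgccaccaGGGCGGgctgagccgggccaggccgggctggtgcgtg
Hoxd8, chr2:74704365-74704664, plus strand: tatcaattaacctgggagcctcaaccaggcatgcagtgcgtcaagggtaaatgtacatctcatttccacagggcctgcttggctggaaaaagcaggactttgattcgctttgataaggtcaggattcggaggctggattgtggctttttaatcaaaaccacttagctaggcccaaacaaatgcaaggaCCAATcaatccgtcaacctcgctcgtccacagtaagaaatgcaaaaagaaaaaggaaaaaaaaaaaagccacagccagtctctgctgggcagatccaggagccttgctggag
Hoxd3, chr2:74711743-74712042, plus strand: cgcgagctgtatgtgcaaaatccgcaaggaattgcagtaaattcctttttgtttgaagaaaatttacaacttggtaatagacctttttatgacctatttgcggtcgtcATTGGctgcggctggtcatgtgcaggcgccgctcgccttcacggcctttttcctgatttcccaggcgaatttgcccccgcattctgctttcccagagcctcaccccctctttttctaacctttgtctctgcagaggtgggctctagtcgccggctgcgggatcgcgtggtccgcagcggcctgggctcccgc
The promoter of Hoxd8 had 1 CCAAT on the plus strand, that of Hoxd3 had 1 on the minus strand, and that of Hoxd9 had 2 GGGCGG, 1 on each strand. The Hoxd3 and Hoxd9 windows each held 20 CpG and the Hoxd8 window 6, against a median of 7 over 32851 mouse promoters. TATAAA and TGATTNAT, also searched on both strands, had no match in these 3 windows. Of 21 promoters listed for 19 of the Hox genes, 12 (57.1%) held CCAAT and 8 (38.1%) held GGGCGG, against 37.4% and 35.7% of all promoters of this length. TATAAA was in 2 (9.52%) and TGATTNAT in 2 (9.52%), against 13.6% and 3.22% of all promoters. These matches are letters in a window and show no bound site.

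Values are log2(signal + 16) of the intensities, with SD over 9 arrays; the added 16 makes folds of dim genes too small. The word dim means below an array's 40th percentile (log2 6.91 to 7.41), and a floored difference is one computed after dim values were set to that limit. Some arrays stood apart in genes of other tissues. Normal prostate 9 had a Pbsn (probasin) value of 4.18, against 8.08 to 14.43 on the other normal arrays and 4.17 to 6.44 in tumours, and 14.96 for the seminal vesicle secretory gene Svs5. These markers go against its label. Over 45037 probe sets its log2 values correlated most closely with those of tumour 7 (r = 0.912) and at most at 0.892 with another normal array, so each result that it decides is given with and without it. Svs5 was also at 15.14, 15.44 and 15.34 on tumours 3, 5 and 7 and at 13.19 and 13.21 on tumours 6 and 8, where no other array passed 10.76. Over 8 measured of 12 seminal vesicle genes the mean was 6.99 to 10.44 in normal prostates and 5.50 to 15.51 in tumours. Krt8, a keratin of luminal epithelium, stood at 9.36 in tumour 1 and at 7.72 in tumour 9, against 13.15 to 14.35 elsewhere, and the neuroendocrine gene Chga was 11.50 and 12.24 there. Poly-A spike controls were bright on normal prostates 1 to 6 and tumours 1 to 5 and dim on normal prostates 7 to 9 and tumours 6 to 9. In tissue RNA, fewer cells of a type and less RNA per cell cannot be told apart.

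Of the 33 Hox genes, Hoxd8 was higher and Hoxc9 lower in tumours, and the other 31 did not pass the test. limma adjusted p-values were taken over 45037 probe sets with a threshold of 0.05; 1 of 48 Hox probe sets was called higher, against 6.16% of all probe sets, and 1 lower, against 5.32%. With 1 probe set a gene, the same 2 genes were called (6.06% of the Hox genes), against 7.89% of all genes called higher and 8.54% lower, 16.4% together. At an unadjusted limma p under 0.05 there were 7 Hox genes (21.2%), namely Hoxb13, Hoxc8, Hoxc9, Hoxc10, Hoxd3, Hoxd8 and Hoxd9, against 30.6% of all genes. No Hox gene had groups that did not overlap, as 1.79% of all genes had. With all arrays the share of Hox genes called was below that of all genes, a difference that was not tested.

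The means lay above normal prostate for 17 Hox genes and below it for 16, with a median log2 difference of 0.15, against -0.0036 over all genes. By cluster, the tumour mean was above normal for 7 of 8 Hoxd genes (median log2 difference 0.56) and 7 of 9 Hoxb genes (0.29). It was below for all 7 Hoxc genes (median -0.58) and 6 of 9 Hoxa genes (-0.18). By position, genes 1 to 4 had a median log2 difference of 0.19 (6 of 10 above), genes 5 to 8 of 0.19 (5 of 9 above) and genes 9 to 13 of -0.20 (6 of 14 above). These are counts of means, mostly of genes that did not pass the test. The Hoxb count turned to 2 of 9 above without normal prostate 9 and tumours 3, 5, 6, 7 and 8, and to 1 of 9 within the arrays with dim spike controls. The Hoxa count became 5 of 9 above without normal prostate 9 and tumours 3, 5 and 7. Leaving out 1 array also turned it, to 6 of 9 above without tumour 9 and 5 of 9 without tumour 5 or normal prostate 3. Without tumours 1 and 9 it was 7 of 9.

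**Figure D1:**
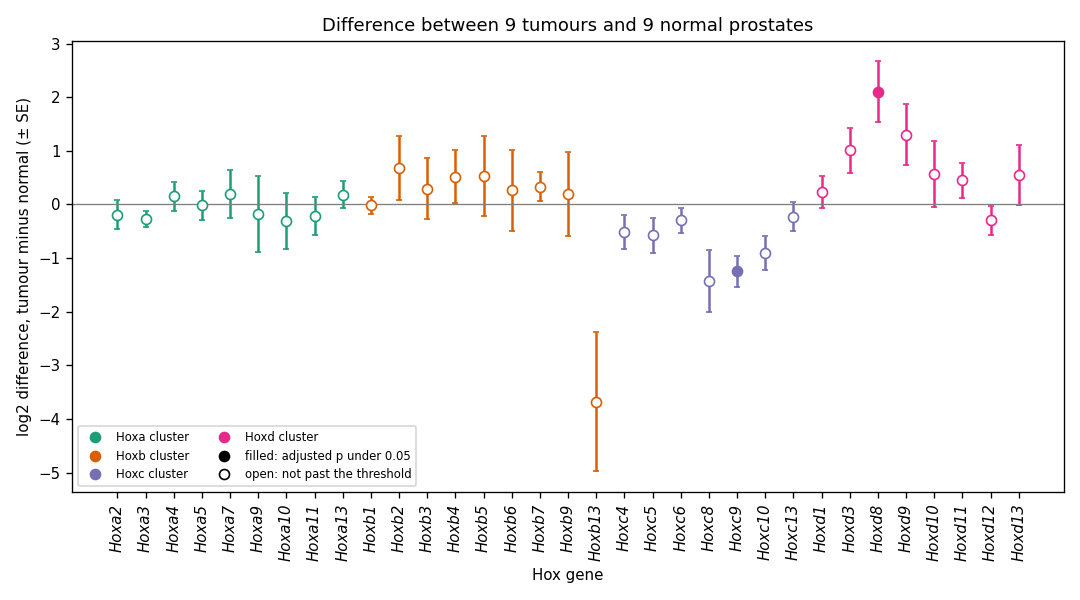
Log2 difference, tumour minus normal prostate, on the vertical axis for each of the 33 Hox genes in order of cluster and position, with bars of 1 SE from limma (9 arrays a group). Filled points passed the adjusted p threshold (Hoxd8 at 2.11 and Hoxc9 at -1.25); Hoxb13, at -3.68, had the widest bar and did not pass.

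The library labelled normal prostate 9, whose markers go against that label, decided several calls. Without it, Hoxd3, Hoxd9 and both Hoxd8 probe sets were called higher (4 probe sets, against 7.36% of all) and Hoxb13, Hoxc9 and Hoxc10 lower (3 probe sets, against 6.62% of all). Without normal prostate 9 and tumours 3, 5 and 7, the arrays highest in seminal vesicle genes, 2 Hox probe sets, both of Hoxd8, were called higher (against 8.71% of all) and 2, of Hoxb13 and Hoxc9, lower (against 7.77% of all).

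The Hox genes varied widely among arrays of the same group. The SD was larger in tumours for 22 of 33 Hox genes (66.7%), against 68.7% of all genes. The median SD of a Hox gene was 0.82 in tumours and 0.77 in normal prostate, against 0.58 and 0.44 over all genes. Tumour 9 was the lowest tumour for 16 of the 33 Hox genes, as it was for 23.4% of all genes, and normal prostate 9 was the highest normal array for 11, as it was for 19.6% of all genes.

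**Figure D2:**
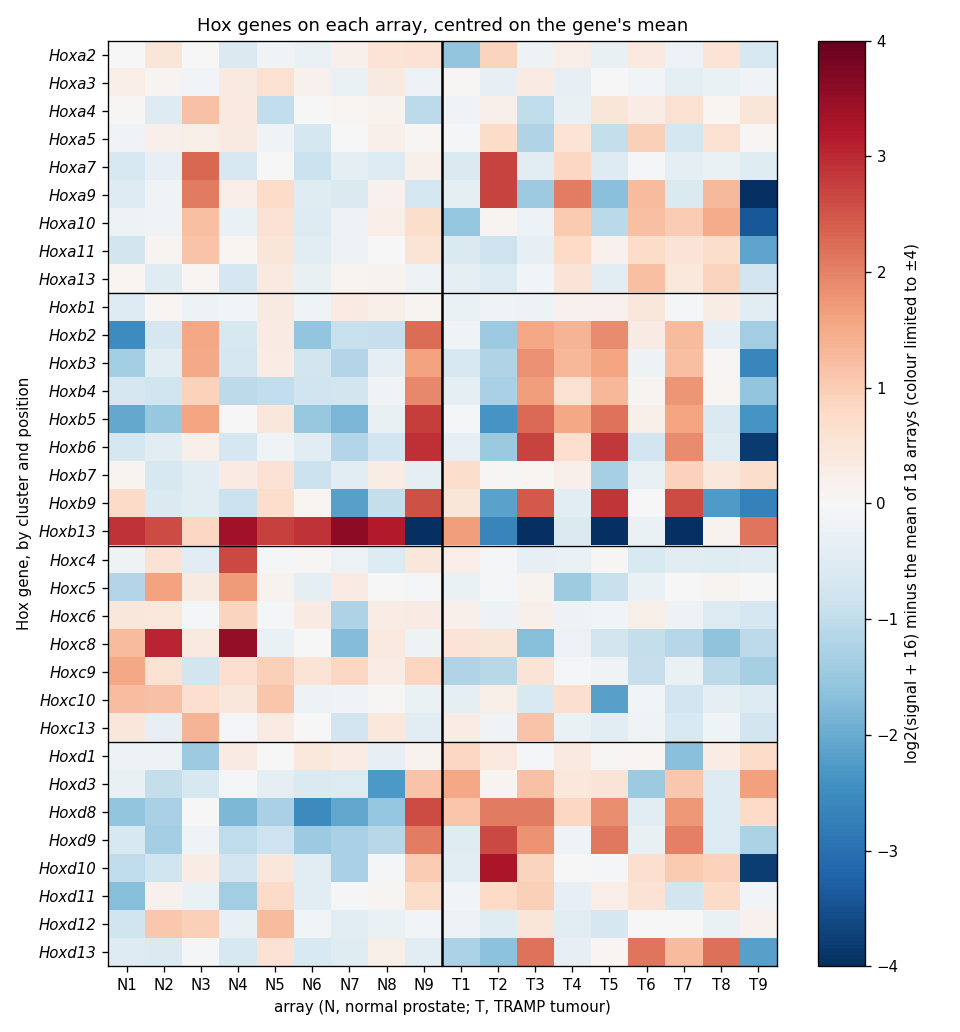
Each of the 33 Hox genes (vertical axis, by cluster and position) on each of 18 arrays (horizontal axis; N, normal prostate; T, TRAMP tumour), coloured by log2(signal + 16) minus the gene's mean over 18 arrays and limited to 4 either way. Hoxb2 to Hoxb6 and Hoxb9 are red on N9, T3, T5 and T7, where Hoxb13 is blue, and Hoxa9, Hoxa10, Hoxa11, Hoxd10 and Hoxd13 are blue on T9.

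In the Hoxd cluster, Hoxd8 rose 4.30-fold in tumours. Hoxd3 and Hoxd9, the nearest measured Hoxd genes on either side of it, had tumour means above normal that did not pass the test. Hoxd8, a gene of the middle of the cluster expressed in the embryonic trunk and limb, had a lowest, median and highest value of 7.11, 8.11 and 12.27 in normal prostate. In tumours these were 9.10, 10.78 and 11.74. The groups overlapped only through normal prostates 3 and 9, at 9.69 and 12.27; the other 7 normal arrays, at 8.38 or less, lay under every tumour. The mean rose from 8.61 ± 1.54 to 10.71 ± 1.01 (log2 difference 2.11 ± 0.57 SE, n = 9 each, limma adjusted p = 0.021). A second Hoxd8 probe set, marked as able to match several transcripts, differed by 1.67 ± 0.54 SE (limma adjusted p = 0.051).

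The Hoxd8 call held without each array in turn (log2 difference 1.92 to 2.56). Within the arrays with bright spike controls the difference was 3.01 ± 0.41 SE (limma adjusted p = 0.00281), and within those with dim controls, 3 normal prostates and 4 tumours, 0.71 ± 1.13 SE (limma adjusted p = 0.877). Normal prostate 9 is one of these 3. The log2 of the 3' to 5' actin ratio, which grows as RNA degrades, was 1.71 ± 0.69 in normal prostate and 1.12 ± 0.51 in tumours. Normal prostate 9 had the lowest log2 ratio of all arrays, 0.31, and the highest Hoxd8, 12.27. With the actin ratio as a covariate the call ended (1.46 ± 0.57 SE, limma adjusted p = 0.155), and this fit was not run without that array. The call also ended in an exact Wilcoxon test adjusted over probe sets (adjusted p = 0.0595), though not in the same exact test adjusted over genes (adjusted p = 0.0475).

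Hoxd9, which patterns the lumbar spine, had a lowest, median and highest value of 7.56, 7.97 and 11.03 in normal prostate. In tumours these were 7.74, 8.86 and 11.65. Its high arrays were normal prostate 9 and tumours 2, 3, 5 and 7, all at 10.79 or more, while every other array lay at 8.86 or less. The mean of the seminal vesicle genes was 7.20 on tumour 2 and 10.44 to 15.51 on the other 4 of these arrays; their part in the Hoxd9 values was not tested. The difference of 1.30 ± 0.56 SE did not pass (limma adjusted p = 0.143). It passed without normal prostate 9 (1.64 ± 0.50 SE, limma adjusted p = 0.0355) and within the bright spike arrays (2.10 ± 0.54 SE, limma adjusted p = 0.042), and within the dim spike arrays it was 0.11 ± 1.01 SE.

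Hoxd3, which patterns the first cervical vertebrae, was dim on 8 normal arrays and 2 tumours. Its lowest, median and highest values were 4.83, 6.57 and 8.26 in normal prostate and 5.68, 7.65 and 8.78 in tumours, with normal prostate 9 the highest normal array and tumours 1, 3 and 9 above it. The difference of 1.01 ± 0.42 SE (floored 0.65) did not pass (limma adjusted p = 0.128). It passed without normal prostate 9 (1.22 ± 0.40 SE, limma adjusted p = 0.0489), without tumour 6 (1.26 ± 0.38 SE, limma adjusted p = 0.0396) and within the bright spike arrays (1.23 ± 0.27 SE, limma adjusted p = 0.0238). The noncoding transcript Hoxd3os1, from the opposite strand at Hoxd3, rose from 7.89 ± 1.70 to 10.14 ± 1.06 (log2 difference 2.25 ± 0.62 SE, limma adjusted p = 0.0185 over 18193 genes).

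Hoxd10 and Hoxd13 were more spread out in tumours than in normal prostate. Hoxd10, which patterns the lumbar spinal cord and hindlimb, had a lowest, median and highest value of 6.73, 7.60 and 9.04 in normal prostate and of 4.23, 8.70 and 11.29 in tumours. Tumour 9 was the array at 4.23 and tumour 2 the array at 11.29, and the difference of 0.57 ± 0.62 SE did not pass (limma adjusted p = 0.603). Hoxd13, the last gene of the cluster and one needed for normal growth of the male accessory glands, lay between 8.43 and 9.65 on all 9 normal arrays with a median of 8.57. Its values in tumours ran from 6.91 to 11.27, with a median of 9.15.

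The tumours high in Hoxd13 were tumours 3, 6, 7 and 8, at 11.25, 11.20, 10.34 and 11.27, and those below every normal array were tumours 1, 2 and 9, at 7.79, 7.42 and 6.91. The groups thus overlapped in the middle only, and the means differed by 0.55 ± 0.55 SE (limma adjusted p = 0.572). Tumours 3, 6, 7 and 8 were also high in Svs5, as was tumour 5, where Hoxd13 stood at 9.15. Normal prostate 9, also high in Svs5, had Hoxd13 at 8.65, within the range of the other normal arrays. Without those 5 tumours and normal prostate 9 the difference was -1.09 ± 0.33 SE, a turn that follows from leaving out all 4 tumours high in Hoxd13. The mean of 10 smooth muscle genes was 13.12, 13.19 and 12.98 on tumours 6, 7 and 8 and 11.24 on tumour 3. It was 10.46, 7.81 and 7.73 on tumours 1, 2 and 9, and 11.89 and 10.14 on tumours 4 and 5. In normal prostate it ran from 9.16 to 12.95, highest on normal prostate 9. The part of seminal vesicle or muscle tissue in the Hoxd13 values was not tested. Hoxd1, Hoxd11 and Hoxd12 were dim on all 18 arrays, with log2 differences of 0.23, 0.45 and -0.30 that did not pass.

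**Figure D3:**
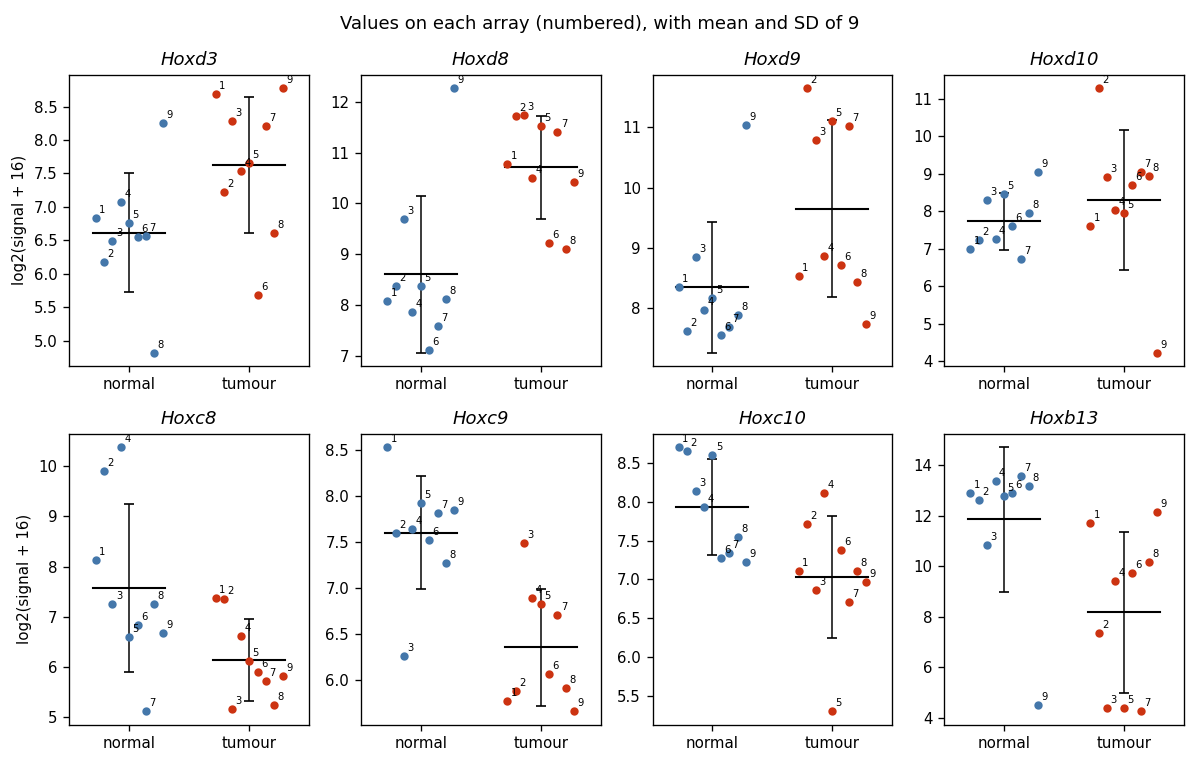
Log2(signal + 16) of 8 Hox genes on each array (points numbered by array; blue, normal prostate; red, TRAMP tumour), with the mean as a line and SD as bars (n = 9 each). Normal prostate 9 stands at 12.27 for Hoxd8 and 11.03 for Hoxd9, above every other normal array, and at 4.50 for Hoxb13, below every other normal array.

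In the Hoxc cluster, Hoxc9 fell in tumours, and Hoxc8 and Hoxc10 on either side of it had lower tumour means that did not pass the test. Hoxc9, which sets the identity of thoracic motor neurons and is also a marker of white fat, had a lowest, median and highest value of 6.26, 7.64 and 8.53 in normal prostate and of 5.66, 6.06 and 7.48 in tumours. All normal arrays but normal prostate 3, at 6.26, lay at 7.27 or more, and all tumours but tumour 3, at 7.48, lay at 6.89 or less. The mean fell from 7.60 ± 0.61 to 6.36 ± 0.64 (log2 difference -1.25 ± 0.28 SE, n = 9 each, limma adjusted p = 0.00784).

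Hoxc9 was near the dim limit: it was dim on 8 tumours and 1 normal array, and the floored difference was -0.48. The call held without each array in turn (log2 difference -1.41 to -1.13). Within the bright spike arrays it was -1.01 ± 0.41 SE (limma adjusted p = 0.165) and within the dim ones -1.56 ± 0.34 SE (limma adjusted p = 0.292), so neither passed alone. With the brightness of the spike controls as a block it passed (-1.22 ± 0.29 SE, limma adjusted p = 0.0105).

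Hoxc10, a gene of lumbar motor neurons and of fat in the lower body, had a lowest, median and highest value of 7.22, 7.93 and 8.71 in normal prostate and of 5.30, 7.11 and 8.11 in tumours. Tumour 4 was the highest tumour and tumour 5 the lowest, and 6 tumours but no normal array were dim. The difference of -0.91 ± 0.32 SE did not pass (limma adjusted p = 0.0703), but did without tumour 4 (-1.04 ± 0.31 SE, limma adjusted p = 0.0366) or normal prostate 9 (-0.99 ± 0.32 SE, limma adjusted p = 0.048). Hoxc8, which patterns the thorax and brachial motor neurons, had a lowest, median and highest value of 5.11, 7.26 and 10.39 in normal prostate and of 5.15, 5.90 and 7.37 in tumours. Normal prostates 2 and 4, at 9.89 and 10.39, were the highest arrays, and 4 normal arrays and 7 tumours were dim. The difference of -1.43 ± 0.57 SE (floored -0.70) did not pass (limma adjusted p = 0.113), but did without normal prostate 7, the lowest normal array (-1.73 ± 0.53 SE, limma adjusted p = 0.0456).

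Fat genes were lower in tumours beside the Hoxc genes. All 6 measured of 8 adipocyte genes were called lower (limma over genes), and their mean was 6.10 to 13.0003 in normal prostate and 5.91 to 9.32 in tumours. Adipoq, the adiponectin gene, was 14.30 on both normal prostates 2 and 4 and 6.71 on normal prostate 7, the normal arrays with the highest and lowest Hoxc8. From normal prostate 3 through 8 and 6 to 5, the adipocyte mean fell (11.57, 11.40, 10.85 and 9.39). Hoxc8 fell in the same order on them (7.261, 7.257, 6.83 and 6.59). Normal prostates 9 and 1 did not keep this order, since normal prostate 9 had an adipocyte mean of 11.98 with Hoxc8 at 6.67 and normal prostate 1 a mean of 10.53 with Hoxc8 at 8.13. Hoxc9 did not follow the adipocyte mean on the normal arrays. It was 7.81 on normal prostate 7, lowest in that mean, and 7.59 and 7.64 on normal prostates 2 and 4, the highest. Normal prostate 3 had the lowest normal Hoxc9, 6.26. Among tumours, tumour 1 had the highest adipocyte mean, 9.32, with Hoxc8 at 7.37. Tumour 2 had a mean of 6.31 with Hoxc8 at 7.36. The part of fat in the Hoxc values was not tested.

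Hoxc5, a gene of the cervical and thoracic trunk, was dim on 7 normal arrays and 9 tumours. Its lowest, median and highest values were 5.002, 6.31 and 7.87 in normal prostate and 4.73, 6.13 and 6.30 in tumours (difference -0.58 ± 0.33 SE, limma adjusted p = 0.285). The normal arrays that were high were again normal prostates 2 and 4, at 7.78 and 7.87. Hoxc4 was dim on all arrays but normal prostate 4, at 7.87. Hoxc6 lay between 6.77 and 8.89 on all arrays, and Hoxc13 was dim on all 18; their differences, -0.51 for Hoxc4, -0.30 for Hoxc6 and -0.22 for Hoxc13, did not pass.

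In the Hoxb cluster no gene passed the test, yet its genes varied by several log2 units between arrays. Hoxb13 had the widest difference of all Hox genes. Its lowest, median and highest values were 4.50, 12.90 and 13.58 in normal prostate and 4.26, 9.43 and 12.15 in tumours. Normal prostate 9, at 4.50, was the single dim normal array, and the other 8 lay between 10.85 and 13.58. Tumours 3, 5 and 7, at 4.39, 4.40 and 4.26, were dim too, tumours 2, 4, 6 and 8 lay between 7.36 and 10.15, and tumours 1 and 9, at 11.70 and 12.15, lay within the range of those 8 normal arrays. Tumours 1 and 9 are the arrays low in Krt8.

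The mean of Hoxb13 was 11.85 ± 2.87 in normal prostate and 8.18 ± 3.17 in tumours, a difference of -3.68 ± 1.30 SE that did not pass (limma adjusted p = 0.0733). On the same 18 arrays it passed in an exact Wilcoxon test (adjusted p = 0.0323), with array weights (limma adjusted p = 0.00848) and with a pseudocount of 64 (limma adjusted p = 0.0453). It also passed without normal prostate 9 (-4.60 ± 1.06 SE, limma adjusted p = 0.00745) and without tumour 9 (-4.17 ± 1.29 SE, limma adjusted p = 0.0484). Without normal prostate 9 and tumours 3, 5 and 7 it was smaller and passed (-2.68 ± 0.63 SE, limma adjusted p = 0.00905). The 4 arrays dim in Hoxb13 had the 4 highest Svs5 values, at 14.96 to 15.44, and the part of seminal vesicle tissue in the Hoxb13 values was not tested. Within the bright spike arrays the difference was -5.11 ± 1.18 SE (limma adjusted p = 0.0275) and within the dim ones -1.35 ± 2.54 SE (limma adjusted p = 0.899).

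Genes in the middle of the Hoxb cluster were high on the same 4 arrays on which Hoxb13 was dim. Hoxb6, expressed in trunk mesoderm and blood progenitors, stood at 11.39 in normal prostate 9 and at 11.18, 11.30 and 10.38 in tumours 3, 5 and 7, while no other array passed 9.15. Its lowest, median and highest values were 7.30, 8.04 and 11.39 in normal prostate and 4.66, 8.15 and 11.30 in tumours, and the difference was 0.26 ± 0.75 SE (limma adjusted p = 0.865). Hoxb9, which acts in the thorax, stood at 9.81 in normal prostate 9 and at 9.73, 10.11 and 9.87 in tumours 3, 5 and 7, with all other arrays at 8.04 or less. Its lowest, median and highest values were 5.10, 6.85 and 9.81 in normal prostate and 4.56, 7.28 and 10.11 in tumours, with a difference of 0.19 ± 0.78 SE (limma adjusted p = 0.907). For both genes tumour 9 was the lowest array of all, at 4.66 and 4.56.

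Hoxb2 to Hoxb5 were high on these 4 arrays and also on normal prostate 3 and tumour 4. Hoxb2, a gene of hindbrain patterning, had a lowest, median and highest value of 5.70, 7.55 and 10.46 in normal prostate and of 6.76, 8.56 and 10.10 in tumours. It stood at 9.77 and 9.58 on normal prostate 3 and tumour 4, and its difference was 0.69 ± 0.60 SE (limma adjusted p = 0.505). Hoxb3, Hoxb4 and Hoxb5 stood at 10.61, 8.98 and 8.57 on normal prostate 3 and at 10.44, 8.67 and 8.53 on tumour 4. Their differences of 0.29, 0.52 and 0.53 did not pass. A second Hoxb3 probe set, dim on 7 normal arrays and 3 tumours, differed by 1.30 ± 0.68 SE (limma adjusted p = 0.233) and was called with array weights only among the alternatives. Upk1a, a gene of the urothelium, was highest on the same normal prostate 3 and tumour 4, at 13.21 and 13.10, with the mean of 7 urothelial genes at 13.27 and 13.11 there, 7.61 to 11.20 on the other normal arrays and 6.72 to 8.96 on the other tumours. Their part in the Hoxb values was not tested. Hoxb1 and Hoxb7, by contrast, did not follow this pattern, at 6.65 to 7.65 and 5.15 to 7.39 over all arrays, with differences of -0.01 and 0.33 that did not pass. Hoxb7 was dim on 9 normal arrays and 7 tumours, and Hoxb1 on 4 normal arrays and 4 tumours. So near the dim limit a pattern could go unseen.

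**Figure D4:**
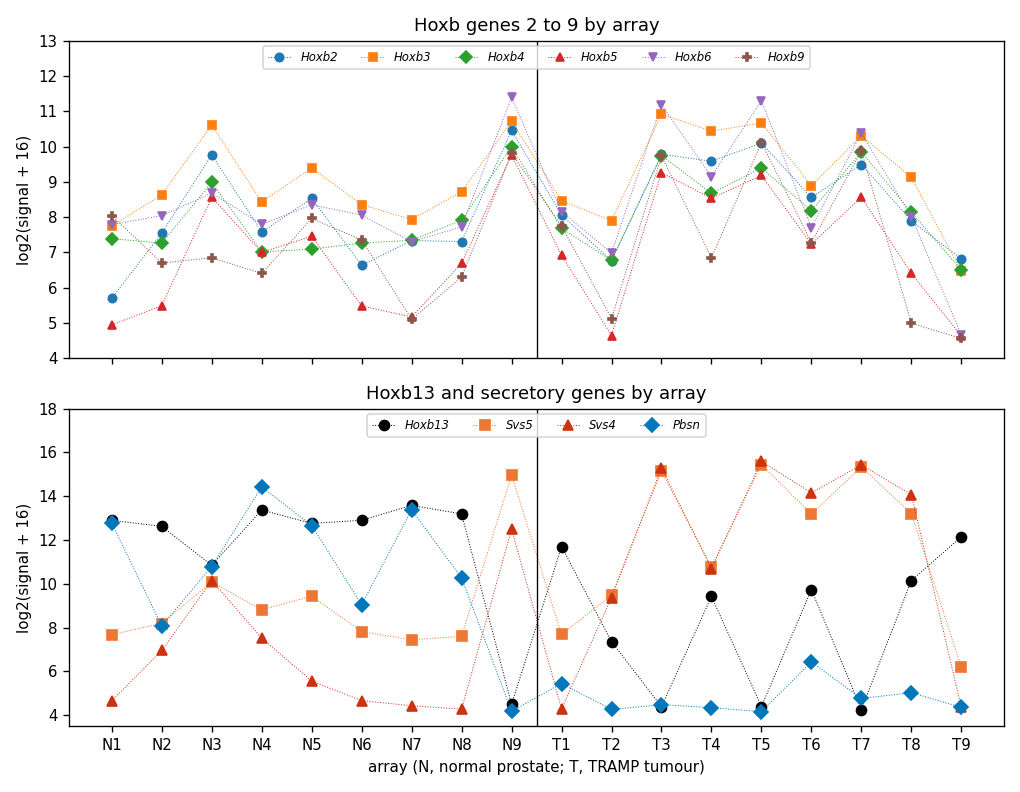
Log2(signal + 16) on each of 18 arrays (N, normal prostate; T, TRAMP tumour; dotted lines join the points of a gene and mark no order) for 6 Hoxb genes above, and for Hoxb13, the seminal vesicle genes Svs4 and Svs5 and the prostate gene Pbsn below. On N9, T3, T5 and T7 Hoxb6 and Hoxb9 are highest, Svs5 is at 14.96 or more and Hoxb13 is at 4.50 or less.

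In the Hoxa cluster no gene passed the test, and the high-numbered genes were spread more widely in tumours. Hoxa9, a leukaemia oncogene that also patterns the reproductive tract, had a lowest, median and highest value of 9.17, 9.74 and 11.98 in normal prostate and of 5.84, 9.51 and 12.60 in tumours. Hoxa10, which acts in the uterus, anterior prostate and seminal vesicle, had values of 9.33, 9.74 and 11.08 in normal prostate and of 6.49, 9.99 and 11.36 in tumours. Hoxa11, needed in the uterus and vas deferens, had values of 8.28, 9.07 and 10.15 in normal prostate and of 6.90, 9.17 and 9.79 in tumours. For all 3 genes tumour 9 was the lowest array of all 18 and normal prostate 3 the highest normal array. Tumour 2 was the highest tumour for Hoxa9, at 12.60, and tumour 8 for Hoxa10, at 11.36.

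The group differences of these 3 genes were small beside that spread. They were -0.18 ± 0.71 SE for Hoxa9 (limma adjusted p = 0.905), -0.31 ± 0.53 SE for Hoxa10 (0.763) and -0.21 ± 0.35 SE for Hoxa11 (0.752). Other probe sets of Hoxa9 and Hoxa10 differed in the opposite direction, by 0.14 and 0.44. Hoxa13, which patterns the hindgut, the digits and the lower urogenital tract, was dim on 6 normal arrays and 5 tumours. Its lowest, median and highest values were 6.42, 7.14 and 7.48 in normal prostate and 6.34, 6.96 and 8.28 in tumours, highest on tumours 6 and 8, at 8.28 and 7.96 (difference 0.18 ± 0.25 SE, limma adjusted p = 0.697). Tumours 6 and 8 were also among the 4 tumours high in Hoxd13.

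**Figure D5:**
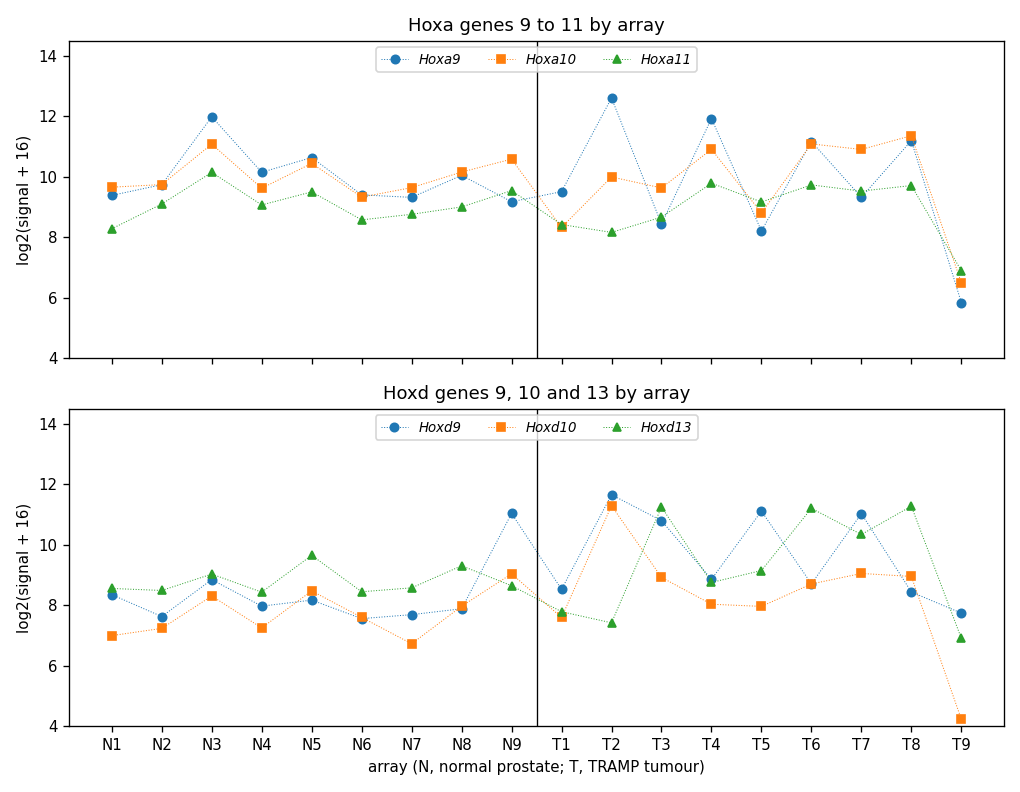
Log2(signal + 16) of Hoxa9, Hoxa10 and Hoxa11 (above) and of Hoxd9, Hoxd10 and Hoxd13 (below) on each of 18 arrays (N, normal prostate; T, TRAMP tumour; dotted lines join the points of a gene and mark no order). On T9 Hoxa9, Hoxa10, Hoxa11, Hoxd10 and Hoxd13 are lowest, at 5.84, 6.49, 6.90, 4.23 and 6.91, and on T2 Hoxa9, Hoxd9 and Hoxd10 are highest, at 12.60, 11.65 and 11.29.

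The array lowest in these high-numbered genes, tumour 9, also had the lowest Krt8 and the highest Hoxb13 among tumours, and its Hoxd3 was 8.78, the highest of all arrays. The mean of 10 smooth muscle genes on tumour 9 was 7.73, the lowest of the tumours, with 7.81 on tumour 2, where Hoxa9, Hoxd9 and Hoxd10 were highest. The part of muscle in these values was not tested. Among the low-numbered Hoxa genes, Hoxa5, which acts in the lung and trunk, lay between 7.57 and 8.61 in normal prostate and between 7.06 and 9.23 in tumours. Hoxa3, a gene of the thymus and parathyroid, lay between 7.37 and 8.36 on all arrays, and all 4 of its probe sets had lower tumour means, by -0.36 to -0.12. Hoxa7 was dim on all arrays but normal prostate 3, at 7.76, and tumour 2, at 8.18, and Hoxa2 and Hoxa4 were dim on all 18. By the probe set that stands for each gene, the differences of these 5 genes ran from -0.27 to 0.19 and did not pass. A second Hoxa5 probe set differed by -0.64 ± 0.35 SE (limma adjusted p = 0.261).

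Among genes that work with the Hox proteins, several passed the test. Of 8 measured of 9 cofactor genes of the Pbx, Meis and Pknox families, 3 were higher and 1 lower by limma over 18193 genes, with a median log2 difference of 0.62, against 7.89% and 8.54% of all genes. Pbx3, a Hox partner, rose from 6.84 ± 1.24 to 9.82 ± 0.42 (limma adjusted p = 0.000155) and was dim on 6 normal arrays. Its values were 5.08, 6.41 and 9.18 in normal prostate (lowest, median, highest) and 9.04, 9.79 and 10.54 in tumours. The groups overlapped only through normal prostate 9, at 9.18, with every other normal array at 8.25 or less. Pknox1 rose from 7.29 ± 1.03 to 9.56 ± 0.38 and Pknox2 fell from 9.94 ± 0.97 to 8.19 ± 0.70 (limma adjusted p = 0.000346 and 0.00406). For Pknox1 too the groups overlapped only through normal prostate 9, at 9.22. Its other normal arrays lay at 8.05 or less and its tumours at 8.99 or more. Pbx4 rose by 1.41 but was dim on 9 normal arrays and 8 tumours (floored 0.13). Meis1 and Meis2, at 0.07 and 1.02, did not pass.

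Of 30 measured of 31 Polycomb and trithorax genes, 7 were higher and 2 lower, with a median log2 difference of 0.18, where 7.89% and 8.54% of all genes were called. Ezh2, the methyltransferase of Polycomb complex PRC2, rose from 9.67 ± 0.48 to 11.46 ± 0.98 (limma adjusted p = 0.00186). Cbx2 and Phc1, of Polycomb complex PRC1, rose by 1.06 and 1.24, and Mtf2, a PRC2 accessory factor, rose by 0.81. Psip1, a chromatin reader, rose by 1.20, and Phc3, another PRC1 gene, fell by 1.09. All 11 measured of 12 proliferation genes were higher as well, with means of 9.21 to 12.56 in tumours and 7.08 to 8.33 in normal prostate; their part in the Polycomb values was not tested.

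Retinoic acid and Cdx proteins switch Hox genes on in the embryo. Of 19 measured of 20 genes of these routes, 3 were higher and 3 lower (median log2 difference -0.09; all genes, 7.89% and 8.54%), and Cdx1, Cdx2, Cdx4 and Fgf8 were dim on all 18 arrays. Rxrg, a retinoid receptor, fell from 8.86 ± 0.92 to 5.29 ± 0.70 and was dim in all 9 tumours (floored -1.72, limma adjusted p = 2.25e-05). Aldh1a1, which makes retinoic acid, fell by 2.50, and its relative Aldh1a3 rose by 1.34. Crabp1 fell by 3.75 and Crabp2 rose by 1.92, both genes of retinoic acid binding proteins. Crabp2 was dim on 8 normal arrays (floored 0.58) and Crabp1 on 6 tumours (floored -2.51), with tumours 1 and 9 at 11.46 and 12.94 and normal prostate 9 at 4.24 against the direction of the means. Rarb, a receptor gene that retinoic acid induces, rose by 0.82.

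Of 17 measured of 19 genes that flank the 4 clusters, 1 was higher and 3 lower (median log2 difference -0.07), beside the 16.4% of all genes called either way. Cbx5, near the Hoxc cluster, rose by 1.15, where all Hoxc means were lower. Hibadh, near Hoxa, fell by 1.62, and Ttll6 and Snf8, near Hoxb, fell by 1.59 and 0.61, where Ttll6 was dim on 8 tumours (floored -0.38). Evx2, next to Hoxd13, differed by -0.08 and did not pass. Of 13 noncoding transcripts of the clusters 3 were measured. Besides Hoxd3os1, Hoxa11os differed by -1.85 ± 0.70 SE (limma adjusted p = 0.0786), with a range of 4.81 to 10.43 in tumours, and Hoxb5os by 0.67 ± 0.66 SE (limma adjusted p = 0.532).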

How the data were processed

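Total RNA of 9 normal prostates and 9 TRAMP tumours was extracted with Trizol and hybridised as biotin-labelled target, per the labels. The authors deposited linear intensities computed by MAS5 (the submitters' processing notes name the tool; its version and a genome build are not given in the sources used here). This tool scales each array by 1 factor: the 2% trimmed mean of the intensities came to 500 on each array. This leaves differences that depend on brightness, and dim probe sets are noisy; the number of arrays limits the precision.

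Probe sets were named from the platform annotation: of 45101, 34945 name 1 gene, 932 several, 9160 none and 64 are controls. Intensities were turned into log2(signal + 16) with no filter. limma 3.58.1 in R 4.3.3 (lmFit, eBayes, group only, two-sided) was run on 45037 probe sets with Benjamini-Hochberg adjustment at 0.05, and again on 18193 genes, each by its probe set with the highest mean. Values of cofactors, regulators and neighbours come from the second. On simulated data for this comparison (45037 probe sets) 32% of 100 probe sets given a log2 change of 1 were called and 86% of 100 given a change of 2, and 10 of 128 calls were false. No other probe set was changed there, whereas the data had 2774 probe sets called higher and 2398 lower. With fewer calls the adjustment is stricter, and the simulated noise was independent between probe sets. These shares therefore do not give the recovery in the data.

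The members and lists were chosen with earlier results of these data known. Named genes were every Hox gene. Lowest, median and highest values were given for called genes, the 10 largest differences and the 5 genes with the largest tumour SD. They were also given for measured genes of positions 9 to 13 other than Hoxc13, Hoxd11 and Hoxd12, which were dim on all 18 arrays. Up to 6 genes by absolute t were named of each list of cofactors, Polycomb and trithorax genes, retinoid and Cdx genes, flanking genes and noncoding transcripts; Meis1, Meis2, Evx2 and marker genes of other tissues were named after their values were seen. Promoters came from RefSeq. Alternatives were pseudocounts of 1 and 64, a filter at the 40th percentile on at least 9 arrays, quantile and 75th percentile scaling, array weights, trend with robust eBayes, the replicate block, spike brightness as a block and alone, omission of arrays high in other tissues' genes or of each array, other probe set choices, an exact Wilcoxon test and the actin ratio as covariate. The omission of tumours 1 and 9 was chosen after seeing the data. Replicate numbers did not pair the arrays. Figures used matplotlib 3.10.9.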

Additional observations from a re-analysis of the deposited data

Results flagged for a closer look

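In 12 of 66 groups of 9 arrays (each Hox gene in each group) the highest or lowest array lay apart, with its gap to the nearest array above 0.493 of the range (Dixon's critical value); chance gives this in about 1 in 20 groups, and genes of a cluster are not independent. Such groups made up 18.2% of the Hox groups and 10.6% of 36386 groups over all genes, a difference that was not tested. Normal prostate 9 was such an array for 4 genes: Hoxb6 at 11.39 (nearest 8.68), Hoxd8 at 12.27 (nearest 9.69), Hoxd9 at 11.03 (nearest 8.85) and Hoxb13 at 4.50 (nearest 10.85). Normal prostate 3 lay apart for Hoxa7, at 7.76 (nearest 5.69), and for Hoxd1, at 4.45 (nearest 5.58). Normal prostate 4 lay apart for Hoxc4, at 7.87 (nearest 5.82), normal prostate 6 for Hoxa5, at 7.57 (nearest 8.12), and normal prostate 7 for Hoxc6, at 6.77 (nearest 7.91). Among tumours, tumour 2 lay apart for Hoxa7, at 8.18 (nearest 6.30), tumour 5 for Hoxc10, at 5.30 (nearest 6.71), and tumour 7 for Hoxd1, at 4.25 (nearest 5.85). Hoxd1 was dim on all 18 arrays, and Hoxa7 and Hoxc4 were dim on nearly all others.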

How the results depend on the processing

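Over 37 alternatives, 1100 of 1202 pairs of a Hox gene and an alternative kept the direction and the side of the threshold, 24 gained a call and 5 lost one. The sign changed in 72 pairs over 20 genes with no call in either fit, the largest being Hoxb6 at -1.12 within the dim spike arrays. It changed with a call in 1, Hoxd13 at -1.09 without normal prostate 9 and tumours 3, 5, 6, 7 and 8. Hoxd8 was called in 34 of 37 and Hoxc9 in 35 of 37. With all arrays, 1 Hox probe set was called higher and 1 lower, and likewise 1 gene each way; the share of all probe sets called in that setting stands in brackets. Probe sets called higher were 2 with the filter (10.2%), 4 with array weights (7.88%), 2 with trend and robust eBayes (6.62%), 3 with the replicate block (5.11%), 4 within bright spike arrays (3.26%), 0 within dim ones (0%), 2 without normal prostate 9 and tumours 3, 5 and 7 (8.71%), 3 without tumours 6 and 8 too (10.7%), 0 in the exact Wilcoxon test (6.11%) and 0 with the actin ratio (2.63%), and 1 to 4 without each array in turn. Probe sets called lower were 2 with a pseudocount of 64 (5.96%), the filter (9.48%), 75th percentile scaling (7.03%), the replicate block (4.45%), the 4-array omission (7.77%), the exact Wilcoxon test (5.41%) or without tumours 1 and 9 (3.54%), 3 with array weights (6.75%) or the 6-array omission (10.4%), 0 within dim spike arrays (0.00222%) and 1 to 3 without each array. Genes called higher were 2 with array weights, the replicate block or the 6-array omission (6.67% to 13.1% of all genes), 3 within bright spike arrays (4.66%), 0 within dim ones (0%) or with the actin ratio (3.88%) and 1 to 3 without each array. Genes called lower were 2 with a pseudocount of 64, quantile or 75th percentile scaling, the replicate block, the 4-array omission, the exact Wilcoxon test or without tumours 1 and 9 (6.07% to 11.6% of all genes), 3 with the filter, array weights or the 6-array omission (10.5% to 14.3%), 0 within dim spike arrays (0.0055%) and 1 to 3 without each array. Within the dim spike arrays, 3 against 4, limma called 1 of 45037 probe sets, with 4265 at an unadjusted p under 0.05. Scaling to the 75th percentile moved the share of all calls that were higher from 53.6% to 41.0% of probe sets and from 48.0% to 36.3% of genes. Deviations of arrays with the same number correlated at -0.0573 to 0.2382, so the numbers were not taken as pairs; the replicate block added calls of Hoxd3 (1.01) and Hoxc8 (-1.43). The causes were not tested.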
